A study of Homo sapiens with 12 samples.

Results

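The clustered replication-dependent histone genes encode the linker histone H1 and the core histones H2A, H2B, H3 and H4 that package newly copied DNA. They were picked out of the gene count table by symbol alone, as rows named H1-1 to H1-6 or starting with H2AC, H2BC, H3C or H4C, with pseudogenes left out. The rule found 66 of 27864 rows, after 2 pseudogenes had been dropped. Of these, 3 pairs of rows carried the same counts in every library (H2AC18 with H2AC19, H3C14 with H3C15, H4C14 with H4C15) and were counted once, which left 63 distinct members. Messenger RNA had been sequenced in T47D, an established estrogen receptor-positive breast cancer cell line, as a control line (CTRL) and a line with NF1 knocked out (NF1KO). Each line had received either the vehicle DMSO or 3 µM BYL719 for 48 h, and no group was untreated. The control line gave 3 libraries per treatment, and the knockout line gave 3 with BYL719 and 2 with DMSO; NF1KO DMSO replicate 1 was not analysed here. BYL719 (alpelisib) inhibits the alpha isoform of PI3K, and NF1 encodes neurofibromin, which switches RAS off. The sources used here do not say how the knockout was made or whether the line was a clone, so that a difference between the lines cannot be told apart from a difference between these particular lines. The libraries are experimental replicates, and where they were not separate cultures the p-values measure a spread that may be technical.

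Replication-dependent histone genes lie in clusters, mostly lack introns and are transcribed chiefly in S phase, when DNA is copied. Their transcripts usually end just after a short stem-loop that is bound by SLBP and cut with the help of the U7 snRNP, and they carry no poly(A) tail. Some of these genes can also give longer or spliced transcripts that end at an AATAAA signal and are polyadenylated, and such transcripts have been described in differentiated or non-dividing cells. The libraries here were made from poly(A)-selected RNA. The values below therefore count the histone RNA that this selection retained, and the share of all histone RNA that it represents was not measured.

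The printed ends of 6 members show both signals. These members were chosen because they had both signals in an annotated transcript and include members that rose and members that fell with BYL719. Letters are from GENCODE v29 transcripts on GRCh38, 5′ to 3′ on the gene's strand, and the capitals mark the stem-loop.

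H4C8 stem-loop: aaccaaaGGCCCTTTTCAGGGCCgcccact
H3C6 stem-loop: atccaaaGGCTCTTCTCAGAGCCaaccact
H2BC21 stem-loop: ctccaaaGGCTCTTTTCAGAGCCacccacc
H2AC18 stem-loop: ctcaaaaGGCTCTTTTCAGAGCCacccacg
H2BC9 stem-loop: acccaaaGGCTCTTTTCAGAGCCacttaat
H4C5 stem-loop: aatcaaaGGCCCTTTTCAGGGCCgcccaca

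They lie at chr6:26285124-26285153 on the minus strand for H4C8, chr6:26225589-26225618 on the plus strand for H3C6 and chr1:149886181-149886210 on the minus strand for H2BC21. Those of H2AC18, H2BC9 and H4C5 lie at chr1:149842216-149842245 (minus), chr6:26252048-26252077 (plus) and chr6:26204994-26205023 (plus). The annotated transcripts of the same genes go on past the stem-loop to the ends printed next, in which the capitals mark AATAAA.

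H4C8 transcript end: agaattgtgaaaaAATAAAtgtttaagcca
H3C6 transcript end: agatgtaaAATAAAagattactgaacagaa
H2BC21 transcript end: gttattAATAAAgttaccaattaatttaaa
H2AC18 transcript end: cgttttcaAATAAAagagttgttaatgctg
H2BC9 transcript end: aattttttAATAAAaggtttttttaatgtc
H4C5 transcript end: ctctgaaAATAAAgtctttgttacttcctg

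These ends lie 1655 transcript bases past the stem-loop for H4C8, 1862 for H3C6, 1729 for H2BC21, 35 for H2AC18, 1640 for H2BC9 and 1022 for H4C5. H4C8 also has an annotated transcript that stops 18 bases past the stem-loop. Of the 66 rows, 28 had a stem-loop in a GENCODE transcript, 20 had a transcript ending at AATAAA, and 8 had a RefSeq gene span above 1000 bases. Many of the other rows have 1 GENCODE transcript of little length, such as 381 bases for H2BC12 and 312 for H4C1. Letters past such an end were not searched, so a signal not found there does not show that the gene lacks it. H4C11, whose transcript stops 6 bases past its stem-loop, was left out of the comparison of letters. The stem-loop letters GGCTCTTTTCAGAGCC were shared by 15 rows, H2BC21 and H2BC9 among them, and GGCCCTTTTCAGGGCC by 3 rows, H4C2, H4C5 and H4C8. Thus H4C8 and H4C5 share their stem-loop letters, as do H2BC21 and H2BC9, and in both pairs the first gene rose and the second fell with BYL719 in CTRL. On GRCh38 (RefSeq), 34 rows lay on chromosome 6 between 25726063 and 26285534, 21 on chromosome 6 between 27132316 and 27893891, and 11 on chromosome 1 between 149782689 and 149887965.

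The libraries held 53283945 to 60148876 counts. NF1 was lower in NF1KO than in CTRL by a log2 fold change of -9.03 in DMSO and -8.11 in BYL719, as the labels state. The 7 luminal markers summed to between 9090 and 13100 CPM (counts relative to the TMM-scaled library size), against 19.6 to 58.6 for 6 markers of other cells, nearly all COL1A1. KRT5 and PTPRC averaged at most 0.0171 CPM in any group, and PECAM1 was at 0 in every CTRL library and at 0.552 CPM in NF1KO BYL719. Replicate 1 of both CTRL groups stood apart from replicates 2 and 3: its deviations from the group mean correlated across genes at 0.52 between the treatments. Counts that change without these 2 libraries are given with and without them.

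The histone genes were a small part of each library, and in each class the mean summed level was higher in CTRL BYL719 than in CTRL DMSO. Their sum made up 0.0131% to 0.0266% of a library's counts, and H2BC12 alone took between 46% and 51.7% of it. Summed over all members, the CTRL DMSO libraries held 128.4 to 174.1 CPM (mean 157.6 ± 25.33, SD, n = 3) and the CTRL BYL719 libraries 197.9 to 274.6 CPM (248.5 ± 43.82, n = 3). The NF1KO sums were 204.9 ± 1.176 CPM in DMSO (n = 2) and 234.2 ± 13.92 CPM in BYL719 (n = 3). In both CTRL groups replicate 1 held the lowest sum, and no CTRL DMSO library reached any CTRL BYL719 library. The H2A genes went from 14.28 ± 4.15 to 30.44 ± 8.223 CPM, the H4 genes from 8.188 ± 0.7792 to 13.46 ± 2.534 CPM and the H3 genes from 5.09 ± 0.6443 to 7.134 ± 1.379 CPM in CTRL. The H3 groups overlapped, with 5.549 CPM in CTRL BYL719 replicate 1 and 5.698 CPM in CTRL DMSO replicate 3. Sums over chosen members carry no test here. In bulk RNA, fewer cells that transcribe a gene and less RNA per cell cannot be told apart.

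**Figure D1:**
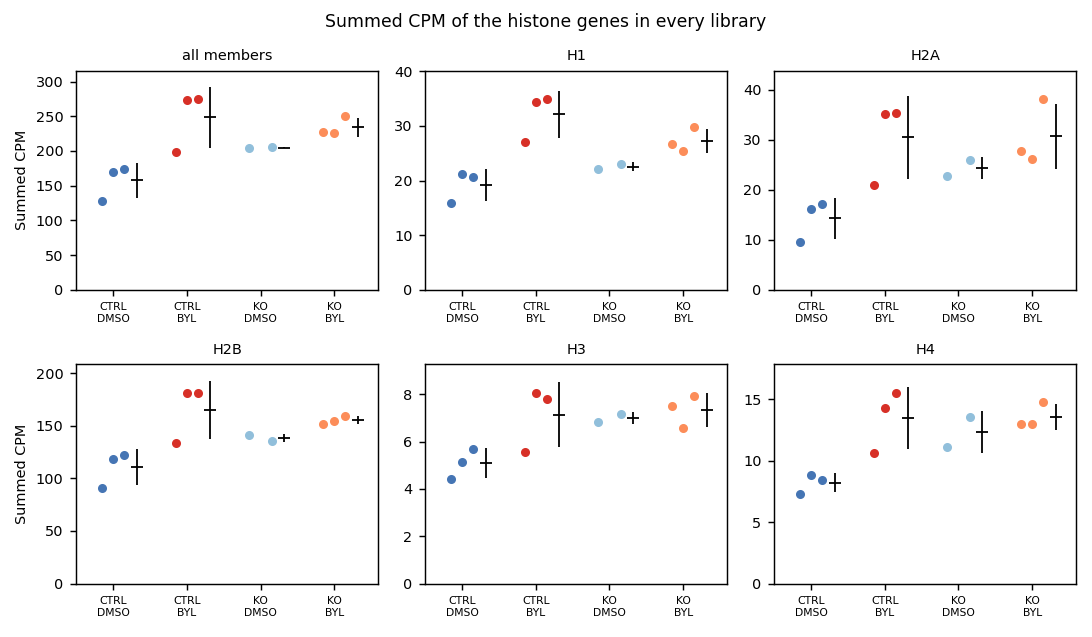
Summed CPM of the histone genes (y axis, from 0) by group (x axis, KO is NF1KO), for all members and for each class; coloured points are libraries, and the black bar is the mean with its SD (n = 3, or n = 2 for NF1KO DMSO). In CTRL the sum over all members lay between 128.4 and 174.1 CPM in DMSO and between 197.9 and 274.6 CPM in BYL719.

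Of the 63 distinct members, 42 had enough counts to be tested, which took about 10 counts in at least 2 libraries. The other 21 never exceeded 15 counts in a library, and 7 of those were at 0 throughout. Of the 7, H4C9 lies within the annotated span of H2BC12, and how reads of such overlaps were counted is not given. A further limit is that 16 of the 42 did not reach that cutoff in 2 libraries of every group, and 2 of these, H4C2 and H4C3, did so in no group. Tests below are edgeR quasi-likelihood tests, 2-sided, with Benjamini-Hochberg adjustment over all 16081 genes tested, and a gene is called at an adjusted p under 0.05. Log2 fold changes are given with their SE. The fit has no block for the replicate number, although the CTRL numbers were taken to pair libraries, and results with a block are given separately.

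BYL719 in CTRL cells moved the histone genes in both directions: 11 of the 42 rose, 13 fell and 18 were not called. This is 57.1% called, where 44.4% of all genes tested were called in this comparison. The median log2 fold change of the 42 was -0.137, against 0.00491 over all genes tested, and single members lay between -2.80 and 2.07. The genes that rose included H4C8, H3C6, H2AC18, H2BC21 and H1-2, and those that fell included H3C2, H1-5, H1-3, H1-4 and H2BC9. In number, 22.6% of all genes tested rose and 21.8% fell. Of the 13 that fell, 10 had reached the count cutoff only in other groups than CTRL BYL719, so that they could be tested because they were higher elsewhere, and their number supports no statement on the class. All 11 that rose had reached it in CTRL BYL719. The number that fell was 8 without CTRL DMSO replicate 1, without CTRL BYL719 replicate 1 or without CTRL BYL719 replicate 3, and 6 without both replicate 1 libraries, while the number that rose was then 10. Of all genes, 41.8%, 46.7%, 37.6% and 47.3% were called in these fits, in the order named.

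**Figure D2:**
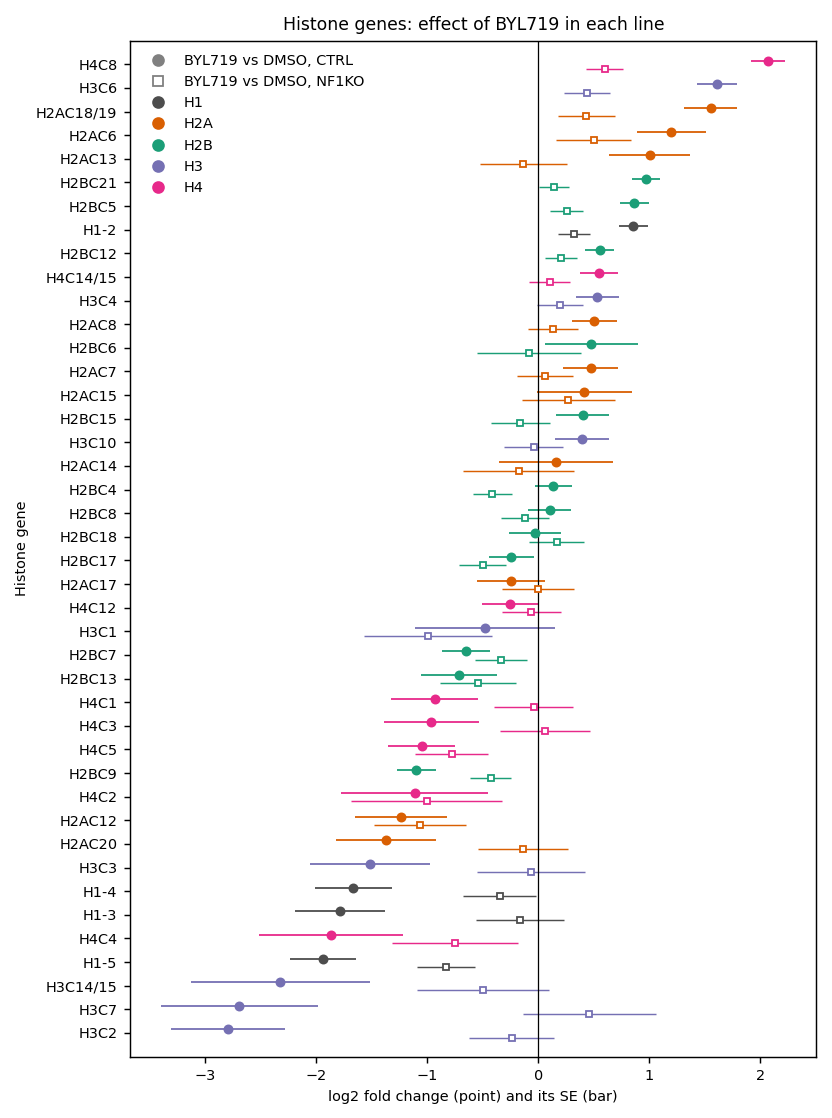
Log2 fold change with BYL719 against DMSO (x axis; bars are the SE) for the 42 tested members (y axis, ordered by the effect in CTRL), in CTRL (filled circles) and in NF1KO (open squares), coloured by histone class. The CTRL effects run from -2.80 for H3C2 to 2.07 for H4C8, and the NF1KO effects from -1.07 to 0.60.

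H4C8, a gene for the core histone H4 (chr6:26285126-26285534), had the largest rise. Its CTRL DMSO libraries held 1.30, 1.37 and 1.43 CPM, and its CTRL BYL719 libraries 4.58, 6.08 and 6.59 CPM. All BYL719 libraries lay above all DMSO libraries, and the log2 fold change was 2.07 ± 0.15 (adjusted p = 7.9e-07), a 4.2-fold rise. H3C6, which encodes H3 (chr6:26224178-26227473), went from 0.756, 0.929 and 1.02 CPM to 2.27, 2.99 and 3.00 CPM, and again the groups did not overlap. Its log2 fold change was 1.61 ± 0.18 (adjusted p = 2.12e-05).

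Among the H2A genes, the identical copies H2AC18 and H2AC19 on chromosome 1, counted as a single member, went from 3.47, 5.59 and 5.64 CPM to 9.42, 16.9 and 16.8 CPM. The log2 fold change was 1.55 ± 0.24 (adjusted p = 0.000227), and how the reads divide between the copies is unknown. H2AC6 held 2.32, 5.03 and 5.64 CPM in DMSO and 6.56, 11.6 and 11.6 CPM in BYL719. Its replicate 1 was the lowest of either group, and the groups did not overlap. The log2 fold change was 1.20 ± 0.31 (adjusted p = 0.0078). H2AC13, of whose 76-base words 60% occur in another histone gene, also rose (1.01 ± 0.36, adjusted p = 0.0412).

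Among the H2B genes, H2BC21 (chr1:149884459-149886682) rose from 6.94, 8.98 and 9.19 CPM to 13.9, 16.9 and 18.5 CPM, a log2 fold change of 0.97 ± 0.12 (adjusted p = 6.14e-05). H2BC5 rose from 9.76, 12.1 and 12.3 CPM to 16.6, 23.6 and 22.2 CPM (0.87 ± 0.13, adjusted p = 0.000197). In neither gene did the groups overlap. H2BC12, the gene with the most counts of all members, held 66.1, 88.0 and 89.4 CPM in DMSO and 95.5, 131 and 131 CPM in BYL719. Its log2 fold change was 0.55 ± 0.13 (adjusted p = 0.0044).

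H1-2, the linker histone gene with the most counts, went from 14.2, 19.3 and 18.9 CPM to 26.3, 34.0 and 34.5 CPM. All BYL719 libraries lay above all DMSO libraries, with a log2 fold change of 0.86 ± 0.13 (adjusted p = 0.000215). H4C14, whose counts equal those of H4C15, held 3.11, 4.63 and 4.18 CPM in DMSO and 4.60, 6.25 and 6.58 CPM in BYL719. Its groups overlapped, but within each replicate number the BYL719 library was the higher. Its log2 fold change was 0.55 ± 0.17 (adjusted p = 0.021). The call was lost without CTRL DMSO replicate 1, without CTRL BYL719 replicate 2 or 3, and in a fit of the compared libraries alone (adjusted p = 0.0558). H3C4 held 0.825, 1.22 and 1.43 CPM in DMSO and 1.44, 1.84 and 1.74 CPM in BYL719. It was called at 0.53 ± 0.19 (adjusted p = 0.0413), a call lost under 11 of the alternatives, and its annotated span contains H2AC7, so that reads of the overlap cannot be assigned to either gene.

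The members that fell had few counts. In 12 of the 13, no CTRL DMSO library held more than 50 counts of the gene, whereas 10 of the 11 that rose exceeded 50 counts in at least 1 such library. The exception was H2BC9, an H2B gene (chr6:26251614-26252075), at 1.72, 1.97 and 1.86 CPM in DMSO and 0.761, 0.856 and 0.967 CPM in BYL719. Its groups lay apart, and it fell by 1.10 on the log2 scale (SE 0.17, adjusted p = 0.000289). H2BC7 fell by 0.65 (SE 0.22, adjusted p = 0.0287) and H4C5 by 1.05 (SE 0.30, adjusted p = 0.0141), and these 3 are the ones that had reached the count cutoff in CTRL BYL719 as well.

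The linker genes H1-5 and H1-4 fell while H1-2 rose. H1-5 held 26, 21 and 29 counts in CTRL DMSO (0.447, 0.383 and 0.538 CPM) and 8, 6 and 6 counts in CTRL BYL719 (0.135, 0.112 and 0.104 CPM), with a log2 fold change of -1.94 ± 0.30 (adjusted p = 0.000238). H1-4 held 0.687, 0.601 and 0.668 CPM in DMSO and 0.338, 0.112 and 0.155 CPM in BYL719, with a log2 fold change of -1.67 ± 0.35 (adjusted p = 0.00211). In both genes every BYL719 library was below every DMSO library. H1-3 fell by 1.79 (SE 0.40, adjusted p = 0.00349).

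The lowest fold change was that of H3C2, an H3 gene, with 25, 12 and 13 counts in CTRL DMSO (0.429, 0.219 and 0.241 CPM) and 3, 3 and 1 in CTRL BYL719 (0.0508, 0.0558 and 0.0173 CPM). Its log2 fold change was -2.80 ± 0.51 (adjusted p = 0.000835), with the size set by very few counts. H3C7, H3C14 and H3C3, other H3 genes, fell by 2.69, 2.32 and 1.52 (adjusted p = 0.0082, 0.0347 and 0.039). H4C4, H2AC20 and H2AC12 fell by 1.87, 1.37 and 1.24 (adjusted p = 0.0342, 0.0265 and 0.0302). H2AC12 held 0.172, 0.273 and 0.186 CPM in DMSO and 0.0846, 0.0744 and 0.104 CPM in BYL719. The H2AC12 call was lost under 7 alternatives, among them each CTRL BYL719 library left out in turn.

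The members that were not called in CTRL ranged from -1.12 for H4C2 to 0.50 for H2AC8. H3C10, an H3 gene, held 1.32, 1.90 and 2.06 CPM in DMSO and 1.42, 2.99 and 2.52 CPM in BYL719 (0.39 ± 0.24, adjusted p = 0.213). The groups of H3C10 overlapped, but within each replicate number the BYL719 library was the higher. It was called at 0.65 without CTRL BYL719 replicate 1. H2BC4 held 1.48, 1.90 and 2.43 CPM in DMSO and 2.06, 2.27 and 2.04 CPM in BYL719 (0.14 ± 0.17, adjusted p = 0.538).

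**Figure D3:**
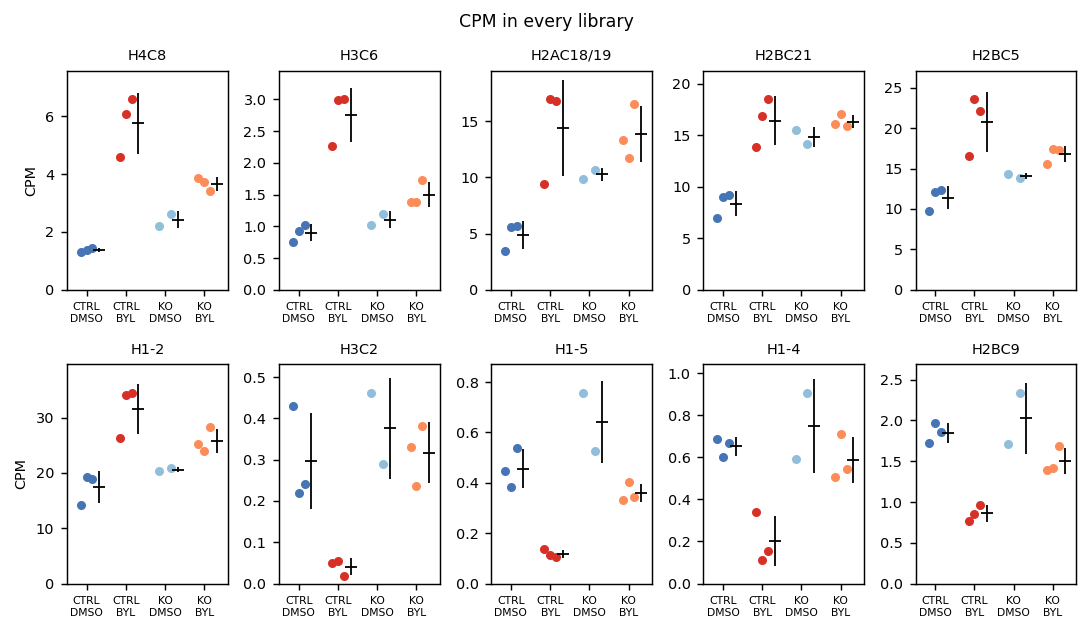
CPM (y axis of each panel, from 0) of 10 histone genes in every library, by group (x axis, KO is NF1KO); coloured points are libraries and the black bar is the mean with its SD (n = 3, or n = 2 for NF1KO DMSO). In CTRL the genes of the upper row and H1-2 rose with BYL719, and H3C2, H1-5, H1-4 and H2BC9 fell.

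The direction in CTRL was set beside the annotated form of each gene. Of the 8 tested members with a RefSeq span above 1000 bases, 6 rose, none fell, and the median log2 fold change was 0.551. These are H2BC5, H2BC12, H2BC21, H3C4, H3C6 and the pair H4C14 and H4C15, which rose, with H2BC4 and H2BC18. The pair is in this class through H4C15 (16753 bases), while H4C14 spans 396 bases. The annotated span of H4C15 contains H2AC19 and H3C15, and that of H3C4 contains H2AC7. Reads of these overlaps cannot be assigned. Of the 34 tested members with a span up to 1000 bases, 5 rose and 13 fell, with a median of -0.565. Of those 13, 10 were tested only because of their counts outside CTRL BYL719, so the numbers of short members that fell and their median describe the filter as well as the genes. H4C8, H2AC18, H2AC6, H2AC13 and H1-2 were the 5, and GENCODE gives the first 3 of them a transcript ending at AATAAA. Among 14 tested members with such a transcript, 7 rose and 3 fell. Among 25 with neither feature, 2 rose and 10 fell, with the same limit. Over all genes tested, 22.6% rose and 21.8% fell, and these splits were not tested against those shares. The lack of an annotated AATAAA end may also reflect an annotated transcript that stops early. The AATAAA class was added after the data were seen. Span moves here with the number of counts, since most of the short genes had few, and their separate part was not tested.

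By position, the members on chromosome 1 gave 3 higher and 2 lower of 6, those of the first block on chromosome 6 gave 6 higher and 9 lower of 24, and those of the second block gave 2 and 2 of 12. By class, 1 of 4 H1 genes rose and 3 fell, 3 of 10 H2A genes rose and 2 fell, and 3 of 12 H2B genes rose and 2 fell. Of the H3 genes 2 of 8 rose and 4 fell, and of the H4 genes 2 of 8 rose and 2 fell. In these splits too, 10 of the 13 falls come from members tested through groups other than CTRL BYL719. Of all genes tested, 22.6% rose and 21.8% fell in this comparison, and no split was tested against these shares.

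Promoter sequences from RefSeq (GRCh38.p14) were at hand for 61 of the 66 rows, not for H4C1, H4C3, H3C11, H3C12 and H2AC12. The 61 include both rows of each pair with equal counts. H3C4 and H2AC7 have the same window, so H3C4 is scored on letters it shares with H2AC7. In the 300 bases from 250 before to 50 after the start, on both strands, CCAAT was present in 52 of the 61 (85.2%, against 35.7% of 27305 promoters). The TATA box letters TATAAA were present in 41 (67.2% against 12%) and the octamer ATTTGCAT, the site known for OCT1 in H2B promoters, in 26 (42.6% against 1.8%). Of 2 spellings of the E2F site, TTTCGCGC was found in 12 (19.7% against 0.546%) and TTTGGCGC in none (against 0.659%). The 150 bases upstream of H4C8, which rose most, of H2BC21, which also rose, and of H2BC9, which fell, are printed to show how unlike or alike these windows are, with the CCAAT, TATA box and octamer letters on either strand in capitals.

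H4C8 upstream: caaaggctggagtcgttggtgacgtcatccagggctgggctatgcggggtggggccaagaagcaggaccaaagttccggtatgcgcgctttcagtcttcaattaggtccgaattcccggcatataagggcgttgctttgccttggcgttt
H2BC21 upstream: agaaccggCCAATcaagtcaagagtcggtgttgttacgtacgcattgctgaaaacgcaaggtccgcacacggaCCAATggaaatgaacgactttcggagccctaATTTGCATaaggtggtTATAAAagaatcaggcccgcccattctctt
H2BC9 upstream: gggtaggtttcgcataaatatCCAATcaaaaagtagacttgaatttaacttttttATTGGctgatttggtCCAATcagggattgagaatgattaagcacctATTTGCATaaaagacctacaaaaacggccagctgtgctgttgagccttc

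They lie at chr6:26285535-26285684 (minus strand), chr1:149886683-149886832 (minus strand) and chr6:26251464-26251613 (plus strand). H4C8 had none of the searched letters in its window, while H2BC21 and H2BC9, which moved in opposite directions, both had CCAAT and the octamer. Of the tested members with the octamer, 4 of 16 rose and 3 fell with BYL719 in CTRL, and of those without it 7 of 23 rose and 9 fell. With TATAAA, 7 of 26 rose and 7 fell, and without it 4 of 13 rose and 5 fell. H3C4 is among the octamer members that rose. Of all genes tested, 22.6% rose and 21.8% fell in this comparison. The motif groups were not tested against these shares. A match is a description of the letters and not a tested site.

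In NF1KO cells, BYL719 changed 2 of the 42 members: H4C8 rose and H1-5 fell. This is 4.76% called, where 18.7% of all genes tested were called in this comparison (10.3% higher, 8.47% lower). The median of the 42 was -0.0734, against 0.0144 over all genes. H4C8 held 2.21 and 2.63 CPM in NF1KO DMSO and 3.88, 3.72 and 3.40 CPM in NF1KO BYL719. The groups did not overlap, and the log2 fold change was 0.60 ± 0.17 (adjusted p = 0.0274). The H4C8 call was lost without NF1KO BYL719 replicate 1 or 2. It was also lost without NF1KO DMSO replicate 2 (0.48) or replicate 3 (0.72). Those fits leave a single NF1KO DMSO library, and fewer of all genes passed in them. H1-5 held 41 and 29 counts in DMSO (0.757 and 0.525 CPM) and 19, 22 and 19 in BYL719 (0.332, 0.401 and 0.345 CPM), a log2 difference of -0.83 ± 0.26 (adjusted p = 0.0459). It was lost under 15 alternatives, including 10 of the 11 in which a library was left out, all but CTRL BYL719 replicate 1.

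The number of rises in NF1KO changed when libraries of the other line were left out of the fit, and the cause was not tested. Without both CTRL replicate 1 libraries, 6 members rose and 2 fell, H1-5 and H2BC4, of 41 members then tested. The share of all genes called in this comparison rose as well, to 33.3% from 18.7% with all libraries. H1-2, H2AC18, H2AC6, H2BC12 and H2BC5 were then called, at log2 fold changes between 0.20 for H2BC12 and 0.49 for H2AC6. In the fit with all libraries the same 5 genes stood at 0.32 ± 0.14 for H1-2 (adjusted p = 0.141), 0.43 ± 0.26 for H2AC18 (0.267), 0.50 ± 0.34 for H2AC6 (0.345), 0.20 ± 0.15 for H2BC12 (0.366) and 0.25 ± 0.14 for H2BC5 (0.249). Of the 11 members that rose in CTRL, 10 had a value above 0 in NF1KO, with a median of 0.254 against 0.973 in CTRL. Of the 13 that fell in CTRL, 12 were below 0 in NF1KO, with a median of -0.349 against -1.67. These members were grouped by their calls in CTRL in the same data, which tends to make the CTRL medians the larger ones. Of the 13, 10 had also reached the count cutoff only outside CTRL BYL719. The smaller NF1KO medians can therefore not be read as a weaker effect there. These counts and medians carry no test, and no share over all genes was computed beside them.

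The values by library show the NF1KO groups side by side. H1-2 held 20.3 and 20.96 CPM in DMSO and 25.2, 23.9 and 28.2 CPM in BYL719. H2BC12 held 99.3 and 94.6 CPM in DMSO and 110, 109 and 116 CPM in BYL719, and H2BC5 held 14.3 and 13.8 against 15.6, 17.4 and 17.3 CPM. For all 3 genes the BYL719 libraries lay above the DMSO libraries without passing the test. H2BC21 held 15.5 and 14.1 CPM in DMSO and 16.1, 17.1 and 15.9 CPM in BYL719 (0.14 ± 0.14, adjusted p = 0.519). H2BC9 held 1.72 and 2.34 CPM in DMSO and 1.40, 1.42 and 1.69 CPM in BYL719 (-0.43 ± 0.18, adjusted p = 0.119). H2BC4 held 3.29 and 3.15 CPM against 2.32, 2.54 and 2.38 CPM (-0.42 ± 0.18, adjusted p = 0.123).

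Whether BYL719 acted differently in the 2 lines was tested directly, and a difference was called for 4 of the 42 members. This is 9.52%, where 9.39% of all genes tested were called (5.68% with a higher effect in NF1KO, 3.71% with a lower one), so the share lay near that of all genes in the fit without a block. The effect in NF1KO less that in CTRL was -1.47 ± 0.22 for H4C8 (adjusted p = 0.0013), -1.17 ± 0.27 for H3C6 (adjusted p = 0.0184) and -0.83 ± 0.18 for H2BC21 (adjusted p = 0.0133). All 3 had risen in CTRL, and of them H4C8 passed the test in NF1KO, while H3C6 (0.44, adjusted p = 0.163) and H2BC21 (0.14, adjusted p = 0.519) did not. H3C6 held 1.01 and 1.20 CPM in NF1KO DMSO and 1.38, 1.39 and 1.73 CPM in NF1KO BYL719. For H3C2 the difference was 2.56 ± 0.65 (adjusted p = 0.0293): its NF1KO libraries held 25 and 16 counts in DMSO (0.462 and 0.290 CPM) and 19, 13 and 21 in BYL719 (0.332, 0.237 and 0.382 CPM), where CTRL BYL719 held 3, 3 and 1. H3C2 was tested because of its counts in the groups other than CTRL BYL719.

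The calls differed in how they held when a library was left out. That of H4C8 held in all 11 cases. That of H3C6 was lost without NF1KO DMSO replicate 3. That of H2BC21 was lost without NF1KO DMSO replicate 2. Both fits leave a single library in that group and called fewer of all genes. That of H3C2 was lost without CTRL DMSO replicate 1, CTRL BYL719 replicate 3, NF1KO DMSO replicate 3, or NF1KO BYL719 replicate 1 or 3, and also without both CTRL replicate 1 libraries (2.37, adjusted p = 0.0534). Without both CTRL replicate 1 libraries, 3 members had a higher and 7 a lower effect in NF1KO, H1-2, H2AC18, H2BC12 and H2BC5 then among the lower ones, and H1-4 among the higher. Of all genes, 15.1% were called for the difference in that fit. Without CTRL BYL719 replicate 1 alone, 4 members had a higher and 6 a lower effect, where 13.5% of all genes were called. With all libraries H1-2, H2AC18, H2BC12 and H2BC5 stood at -0.53 ± 0.19, -1.12 ± 0.34, -0.35 ± 0.19 and -0.61 ± 0.19 (adjusted p = 0.122, 0.0643, 0.344 and 0.0719). With the replicate number as a block, 1 member had a higher and 6 a lower effect in NF1KO, where 13.9% of all genes were then called, and H1-2 (-0.44, adjusted p = 0.043), H2AC18 (-0.94, adjusted p = 0.0169) and H2BC5 (-0.50, adjusted p = 0.0108) were among the lower ones. The numbers were taken to pair the CTRL libraries but not those of NF1KO, while the block gives each number a shift shared by both lines.

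In DMSO, 7 members were higher in NF1KO than in CTRL and none was lower by edgeR, DESeq2 or any other alternative run. This is 16.7%, where 20.3% of all genes tested were called, 9.99% higher and 10.3% lower. Of the 42, 39 had a value above 0, and the median was 0.34 against -0.0115 over all genes. All 42 were measured in the same libraries, so the 39 are not independent, and the share of all genes above 0 was not computed. CTRL DMSO replicate 1 held a low sum of the members, 128.4 CPM against 170.2 and 174.1 in replicates 2 and 3. The 7 were H2AC18 (1.07 ± 0.26, adjusted p = 0.0126), H2AC7 (0.89 ± 0.27, adjusted p = 0.0344), H2BC21 (0.83 ± 0.14, adjusted p = 0.00107), H4C8 (0.82 ± 0.18, adjusted p = 0.0057), H2BC4 (0.74 ± 0.18, adjusted p = 0.0122), H4C14 (0.72 ± 0.19, adjusted p = 0.0181) and H3C4 (0.69 ± 0.21, adjusted p = 0.0389). H2AC7 lies within the annotated span of H3C4, so their calls may rest on the same reads. Among other alternatives, the H3C4 call was lost without CTRL DMSO replicate 1 or 2 and in a fit of the compared libraries alone (adjusted p = 0.0753).

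For H2BC21, the 2 NF1KO DMSO libraries at 15.5 and 14.1 CPM lay above all CTRL DMSO libraries, which reached 9.19 CPM, and close to the CTRL BYL719 libraries. H2AC18 held 9.86 and 10.7 CPM in NF1KO DMSO against 5.64 CPM at most in CTRL DMSO, and H4C14 held 5.92 and 7.16 against 4.63 CPM at most. H3C4 held 1.94 and 1.79 CPM in NF1KO DMSO against 1.43 CPM at most, and H2AC6 held 6.50 and 7.25 CPM against 5.64 CPM at most without passing the test (0.67 ± 0.35, adjusted p = 0.195). CTRL DMSO replicate 1 was the lowest library for each of these 5 genes. Fewer members were called without NF1KO DMSO replicate 2 or 3, in fits that give the single NF1KO DMSO library the spread of the other groups. Fewer of all genes passed in those fits too. Without replicate 2 and without replicate 3, H2AC18 stood at 1.12 and 1.01 and H2BC4 at 0.71 and 0.77. With all libraries they stood at 1.07 and 0.74. Without both CTRL replicate 1 libraries 8 members were higher in NF1KO, where 26% of all genes were called.

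Under BYL719, 11 members were higher in NF1KO than in CTRL and 2 were lower. This is 31% called, where 39.8% of all genes tested were called (20.8% higher, 19.0% lower), and it uses the same CTRL BYL719 libraries as the effect of BYL719 in CTRL. The 2 lower genes were H3C6 (-0.88 ± 0.17, adjusted p = 0.00138) and H4C8 (-0.65 ± 0.14, adjusted p = 0.00288). The higher genes were H3C2 (2.88 ± 0.50, adjusted p = 0.000637), H1-5 (1.60 ± 0.31, adjusted p = 0.00127), H1-4 (1.51 ± 0.35, adjusted p = 0.00451) and H2BC9 (0.80 ± 0.18, adjusted p = 0.00302), with H3C7, H3C14, H3C3, H2AC20, H1-3, H4C1 and H4C3. H1-4 held 0.507, 0.712 and 0.545 CPM in NF1KO BYL719 and 0.591 and 0.906 CPM in NF1KO DMSO. Most of these genes had reached the count cutoff only outside CTRL BYL719, as above. The count of higher genes was 7 without CTRL BYL719 replicate 2 or without NF1KO BYL719 replicate 3, and that of lower genes was 5 without both CTRL replicate 1 libraries and 4 without either of them. Without both, 46.7% of all genes were called.

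The other members shown by library were not called between the lines under BYL719. H2AC18 held 13.3, 11.7 and 16.5 CPM in NF1KO BYL719 (-0.05 ± 0.22 against CTRL, adjusted p = 0.872), and H2AC6 8.02, 8.12 and 13.0 CPM (-0.03 ± 0.30, adjusted p = 0.943). H3C10 held 2.39, 2.15 and 2.29 CPM (-0.02 ± 0.24, adjusted p = 0.965) and 2.23 and 2.46 CPM in NF1KO DMSO. H4C14 held 6.41, 6.80 and 7.84 CPM (0.27 ± 0.17, adjusted p = 0.218) and H3C4 2.096, 2.01 and 2.31 CPM (0.35 ± 0.18, adjusted p = 0.149). H2AC12 held 0.140, 0.0730 and 0.164 CPM, against 0.332 and 0.199 CPM in NF1KO DMSO (0.51 ± 0.46 against CTRL under BYL719, adjusted p = 0.411). A p that misses the threshold does not show that the lines were alike.

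**Figure D4:**
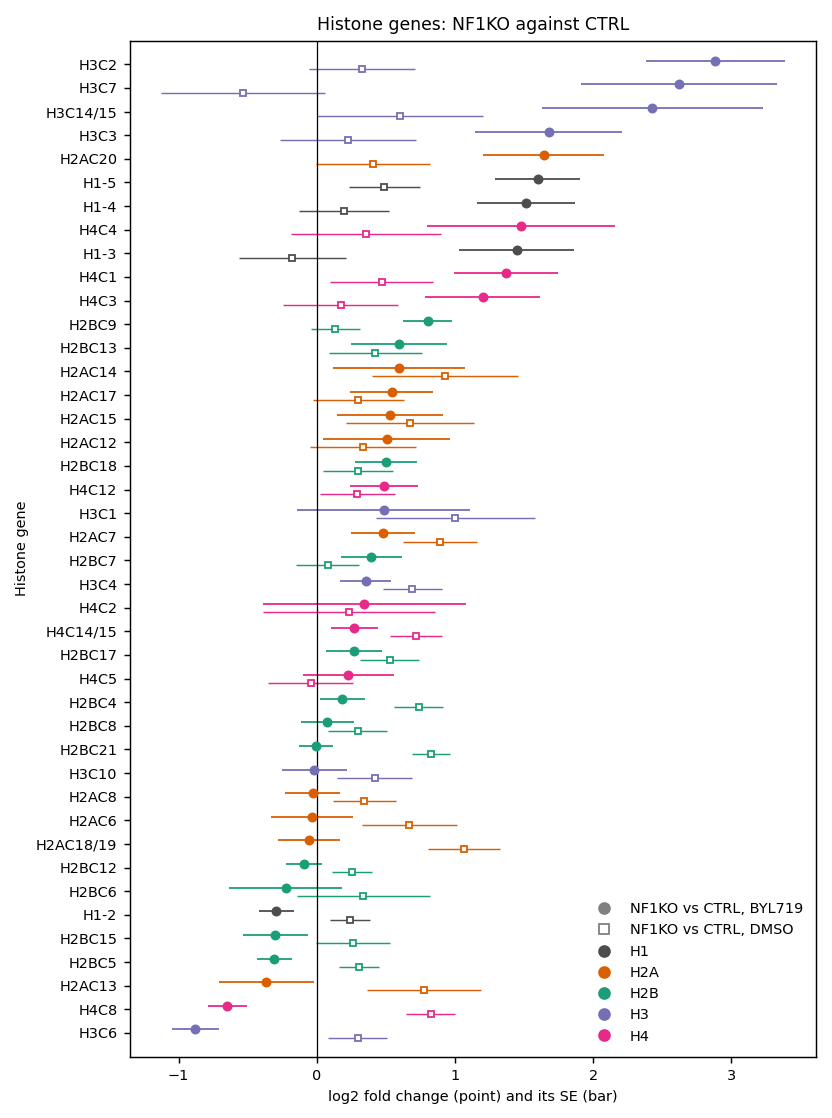
Log2 fold change of NF1KO against CTRL (x axis; bars are the SE) for the 42 tested members (y axis, ordered by the value under BYL719), under BYL719 (filled circles) and in DMSO (open squares), coloured by histone class. In DMSO 39 of 42 members, all measured in the same libraries, lie above 0. Under BYL719 the values run from -0.88 for H3C6 to 2.88 for H3C2.

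Genes that act around these histones fell with BYL719 in CTRL more often than they rose. All 16 S phase genes on the list fell, with a median of -1.05: MCM2, a subunit of the replicative helicase, went from 188.5 ± 5.484 to 86.97 ± 3.049 CPM (n = 3 each; -1.12 ± 0.06, adjusted p = 4.51e-08). RRM1, a subunit of ribonucleotide reductase, fell by 1.13 (adjusted p = 4.99e-08) and the thymidine kinase TK1 by 1.55 (adjusted p = 7.07e-08). In NF1KO 2 of the 16 fell, with a median of -0.132, and the difference between the lines was called for 15 of 16. The clustered histone genes thus had members that rose beside an S phase list in which none rose, and the contrast between the lists was not tested.

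Of 11 genes for histone variants outside the clustered families, 8 fell and none rose with BYL719 in CTRL (median -0.468). H2AZ1 went from 419.6 ± 25.76 to 162.6 ± 8.794 CPM (n = 3 each; -1.37 ± 0.07, adjusted p = 4e-08). CENPA, the centromeric H3, fell by 1.28 (adjusted p = 1.04e-06) and H2AX, which marks DNA breaks when phosphorylated, by 1.04 (adjusted p = 6.09e-06). In NF1KO only H2AZ1 of the 11 passed the test (-0.40 ± 0.07, adjusted p = 0.00314), and the difference between the lines was called for 5 of 11, all higher in NF1KO.

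Of 18 genes for histone gene transcription and transcript processing, 10 fell and 1 rose in CTRL (median -0.281). CDK2, the cyclin E partner kinase that phosphorylates NPAT, fell from 115 ± 2.934 to 62.72 ± 0.7231 CPM (n = 3 each; -0.87 ± 0.06, adjusted p = 1.99e-07) and cyclin E2 (CCNE2) by 1.19 (adjusted p = 9.16e-06). SLBP, which binds the stem-loop, fell by 0.44 (adjusted p = 0.000196) and CPSF2, a subunit of the cleavage complex, by 0.36 (adjusted p = 0.00112). The difference between the lines was called for CDK2 (0.78 ± 0.08, adjusted p = 0.000112), CCNE2 (0.89 ± 0.18, adjusted p = 0.00765) and SLBP (0.47 ± 0.10, adjusted p = 0.0102). In NF1KO the U7 snRNP protein gene LSM10 alone passed the test, at -0.51 ± 0.14 (adjusted p = 0.026).

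Of 17 histone chaperone genes, 10 fell and 1 rose in CTRL (median -0.289). ASF1B, which hands H3 and H4 to the replication machinery, fell by 1.46 (adjusted p = 1.66e-07), the CAF-1 subunit CHAF1B by 1.05 (adjusted p = 2.54e-07) and HJURP, the chaperone of CENPA, by 1.47 (adjusted p = 2.09e-06). NAP1L1, an H2A and H2B chaperone, was the 1 that rose (0.49 ± 0.08, adjusted p = 0.000249), and it rose in NF1KO too (0.51 ± 0.09, adjusted p = 0.00191). In NF1KO 2 of the 17 rose and 2 fell, where 18.7% of all genes were called. The difference between the lines was called for 8 of 17, all higher in NF1KO. All counts for these 4 lists are to be read beside the shares of all genes called, which were 44.4% with BYL719 in CTRL, 18.7% in NF1KO and 9.39% for the difference.

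**Figure D5:**
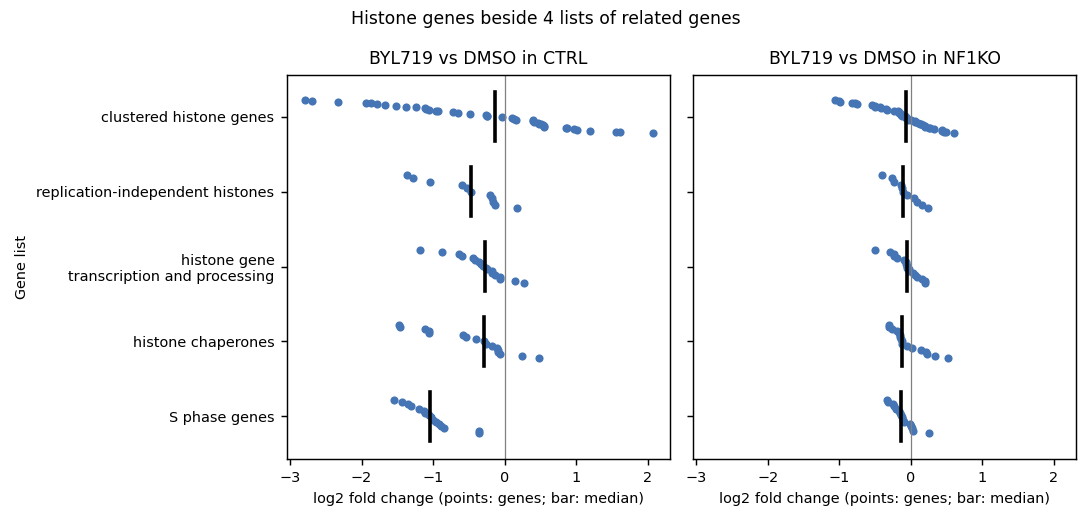
Log2 fold change with BYL719 against DMSO (x axis, same scale in both panels) of the tested genes of 5 lists (y axis) in CTRL (left) and NF1KO (right); points are genes spread vertically by rank, and the black bar is the list's median. In CTRL all 16 S phase genes lie below 0, while the histone genes run from -2.80 to 2.07.

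Outside the members, the genes whose log2 CPM followed the sum of the log2 CPM of the 34 tested short-span members most closely over the 11 libraries were WDR34 (Pearson r = 0.982), RPN1 (0.98), RNASEH2C (0.978), ATP6V0B (0.977) and OGG1 (0.976), among 11514 candidates. That sum weighs each member's log2 level equally and is not the summed CPM given above. The libraries share the 4 groups and their depths, so these values describe likeness only.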

How the data were processed

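Messenger RNA of T47D cells was sequenced as single reads of 76 bases from poly(A)-selected, stranded libraries made from 200 ng of RNA, per the labels' protocols. The authors deposited raw counts per Entrez gene, made with STAR 2.5.2a, SAMtools 1.7, Picard 2.9.2 and edgeR on hg38, per the submitters' processing notes. The counting tool, its annotation and its use of strand are not given in the sources used here, so overlapping genes cannot be told apart. Of 12 labelled samples, 11 had a column.

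Histone genes that share sequence may exchange or lose reads. Of the 66 rows, 12 shared over 50% of their 76-base words with another histone gene. All 66 matched RefSeq and GENCODE v29 on GRCh38.

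The model for the 27864 genes used edgeR 4.0.16 under R 4.3.3. The filterByExpr default left 16081 genes, libraries were scaled by TMM, and a quasi-likelihood model with 4 groups (7 residual degrees of freedom) gave 5 comparisons, each 2-sided and adjusted by Benjamini-Hochberg. The SE is the log2 fold change over the square root of F. CPM use TMM-scaled library sizes. Read counts without molecular identifiers are not independent molecules. Fits were tested on simulated data.

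Fits were repeated with RLE or upper-quartile scaling, without a filter, with at least 1 CPM in 3 libraries, with DESeq2 1.42.0 and limma 3.58.1 (voom), with a replicate block, on the libraries of a comparison alone, leaving out each library, and leaving out both CTRL replicate 1 libraries. The AATAAA class and leaving out members that share sequence were added after the data were seen. Deviations of same-number CTRL libraries correlated between treatments at 0.52, 0.27 and 0.25 across genes. Those of unlike numbers correlated between -0.35 and 0.17, with replicates 2 and 3 at 0.17 and 0.14. The values do not establish a pairing, but CTRL numbers were taken to pair libraries. The 2 NF1KO pairs, at 0.09 and 0.13, were not.

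Per-library values are given for the 2 members per class with the highest mean CPM and the up to 4 with the smallest adjusted p per comparison, and up to 4 genes per other list are named. The genes most like the members had a mean log2 CPM of at least 2. The members, lists and tests were chosen with earlier results of these data known. Figures were drawn with matplotlib 3.10.9.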

Additional observations from a re-analysis of the deposited data

Results flagged for a closer look

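For 4 histone genes the effect of BYL719 differed between the lines by the edgeR test of the difference itself (NF1KO less CTRL, log2). It was -1.473 for H4C8 (adjusted p = 0.0013), with 4.58 to 6.59 CPM in CTRL BYL719 and 3.40 to 3.88 CPM in NF1KO BYL719. It was -1.173 for H3C6 (adjusted p = 0.0184) and -0.8319 for H2BC21 (adjusted p = 0.0133). For H3C2 it was 2.556 (adjusted p = 0.0293), with 3, 3 and 1 counts in CTRL BYL719, and the gene was tested because of its higher counts in the other groups. These are 9.52% of the 42 members tested, where 9.39% of all genes were called.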

How the results depend on the processing

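RLE and upper-quartile scaling left every count of called members as it was. Among values of named members recomputed under the alternatives, 1553 kept direction and side of the threshold, 63 lost a call, 43 gained a call and none reversed. Leaving out 1 library at a time gave these ranges of higher and lower members: 8 to 13 and 8 to 14 for BYL719 in CTRL, 0 to 1 and 0 to 1 for BYL719 in NF1KO, 1 to 8 and 0 to 0 for NF1KO in DMSO, 7 to 12 and 2 to 4 for NF1KO under BYL719, and 0 to 4 and 2 to 6 for the difference of effects. A filter of at least 1 CPM in 3 libraries left 17 members, of which 1 fell with BYL719 in CTRL, 0 fell in NF1KO, 1 was higher in NF1KO under BYL719 and 0 had a higher effect in NF1KO, since fewer members were tested. No member fell with BYL719 in NF1KO with no filter, with DESeq2 or with limma-voom (0 each). Without both CTRL replicate 1 libraries, 6 fell in CTRL, 6 rose and 2 fell in NF1KO, 5 were lower in NF1KO under BYL719, and the difference was higher for 3 and lower for 7. Of all genes, 47.3%, 33.3%, 46.7% and 15.1% were called in these comparisons, in the same order. With only the compared libraries, 3 rose in NF1KO, where 26.8% of all genes were called. For the difference, limma-voom called 2 higher and DESeq2 5 lower, where they called 9.32% and 11.9% of all genes. The cause of these shifts was not tested. The ranges above include fits that leave a single NF1KO DMSO library. In those fits fewer of all genes passed in the comparisons that use that group. The sums without H2BC12 were 76.4 CPM in CTRL DMSO, 129.4 in CTRL BYL719, 107.9 in NF1KO DMSO and 122.6 in NF1KO BYL719. With the AATAAA class in place of span, the median of NF1KO against CTRL in DMSO was 0.378 in place of 0.498.

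With the replicate number as a block, 12 members rose and 13 fell with BYL719 in CTRL, where the numbers were taken to pair the libraries. Of all genes, 53.1% were called in that comparison. In the other comparisons the block gave 7 higher and 0 lower with BYL719 in NF1KO, 4 lower in NF1KO under BYL719 and 6 with a lower effect in NF1KO. Of all genes, 29%, 49.3% and 13.9% were called in these comparisons, in the same order. The block gives each number a shift shared by both lines. Deviations of same-number CTRL and NF1KO libraries, however, correlated only between -0.065 and 0.12 across genes. NF1KO DMSO also has no replicate 1 in the fit. The counts that involve NF1KO are therefore not a paired result. Low counts limit the members that fell: 10 of 13 were under the count cutoff in CTRL BYL719.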
